A study of Mus musculus with 18 samples.

Results

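RN2 cells carrying intact BE and given rapamycin were set against RN2 cells carrying nCas9. RN2 cells come from an acute myeloid leukemia of the mouse that carries the MLL-AF9 fusion and mutant Nras. Intact BE is a cytosine base editor, in which a DNA deaminase named evoA1 is joined to a Cas9 nickase, and nCas9 is the Cas9 nickase alone. The comparison uses 6 of the 18 libraries of the study, 3 of intact BE with rapamycin and 3 of nCas9, chosen by their labels. Other libraries, 3 of each kind, hold intact BE under vehicle, seBE with rapamycin, seBE under vehicle and an intact BE whose deaminase carries a catalytic mutation. seBE is a switchable editor, uninduced under vehicle and induced with rapamycin. Cells were transduced by lentivirus and sorted on day 5, and the drug was 1 nM rapamycin for the last 24 h. The sample table lists a 24 h vehicle treatment for nCas9 cells, while the treatment protocol mentions drug or vehicle only for intact BE and seBE. All cells share the same leukemia line, a WT genotype entry and a lentiviral construct. Construct and drug differ together here, so an effect of the editor and an effect of rapamycin cannot be told apart in this comparison alone. The libraries of a group are labelled biological replicates, but no label says whether cultures or transductions were separate, so the p-values cover only the spread among these libraries.

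Rapamycin binds FKBP12, the product of Fkbp1a, and the complex inhibits mTORC1, a kinase complex that couples growth signals and amino acid supply to protein, lipid and nucleotide synthesis. mTORC1 raises the translation of ATF4, a transcription factor that is also induced in the integrated stress response and that drives genes for amino acid synthesis, amino acid transport and tRNA charging. It also raises the activity of the SREBP factors, which drive sterol and fatty acid synthesis. When mTORC1 is inhibited, feedback onto insulin receptor substrates, PI3K and MAPK signaling is relieved in many cell types. Cytosine base editors carry an active deaminase, and the study's stated question was which changes in gene expression accompany base editor toxicity.

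The 3 libraries of intact BE with rapamycin held 23284932, 20044158 and 20832208 counts, and the 3 nCas9 libraries 18512944, 15565680 and 20285241. Of 11 markers of myeloid leukemia, all passed the filter on low counts, and their summed level ran from 2629 to 2716 CPM (counts scaled to a common library size) in intact BE with rapamycin and from 2448 to 2659 CPM in nCas9. Erythroid markers summed to between 0.921 and 1.56 CPM in intact BE with rapamycin and between 0.146 and 1.99 CPM in nCas9, with 2 of 7 at 0 in all 18 libraries. B cell markers summed to between 0.731 and 0.790 CPM in intact BE with rapamycin and between 0 and 0.897 CPM in nCas9, with 2 of 5 at 0 throughout. T and NK cell markers summed to 0 CPM in intact BE with rapamycin and to between 0 and 0.216 CPM in nCas9, with 4 of 6 at 0 throughout. Megakaryocyte markers summed to between 9.70 and 13.2 CPM in intact BE with rapamycin and between 11.4 and 13.1 CPM in nCas9. Of 7 fibroblast and endothelial markers 4 were at 0 throughout, and the list's sum came from Pecam1, which leukocytes also carry, at 274 ± 8.84 CPM in intact BE with rapamycin and 208 ± 27.4 CPM in nCas9 (SD, n = 3 each). Bulk counts cannot tell fewer cells of a type from less RNA per cell.

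Library-wide features also differed between the groups. Mitochondrially encoded genes took 2.11% ± 0.13 of counts in intact BE with rapamycin and 5.10% ± 0.59 in nCas9 (SD, n = 3 each), a ratio of 0.413, and the groups did not overlap. A 2-sided exact permutation test gave p = 0.1, the smallest that 3 libraries against 3 allow. The slope of log2 level on transcript length, relative to the mean library, was 0.077 ± 0.018 per doubling of length in intact BE with rapamycin and -0.073 ± 0.023 in nCas9 (exact permutation p = 0.1), so long transcripts stood higher in intact BE with rapamycin and short ones lower. nCas9 replicate 2 stood apart on the second principal component, at 62.98, where the other 17 libraries lay between -24.5 and 21.5.

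**Figure D1:**
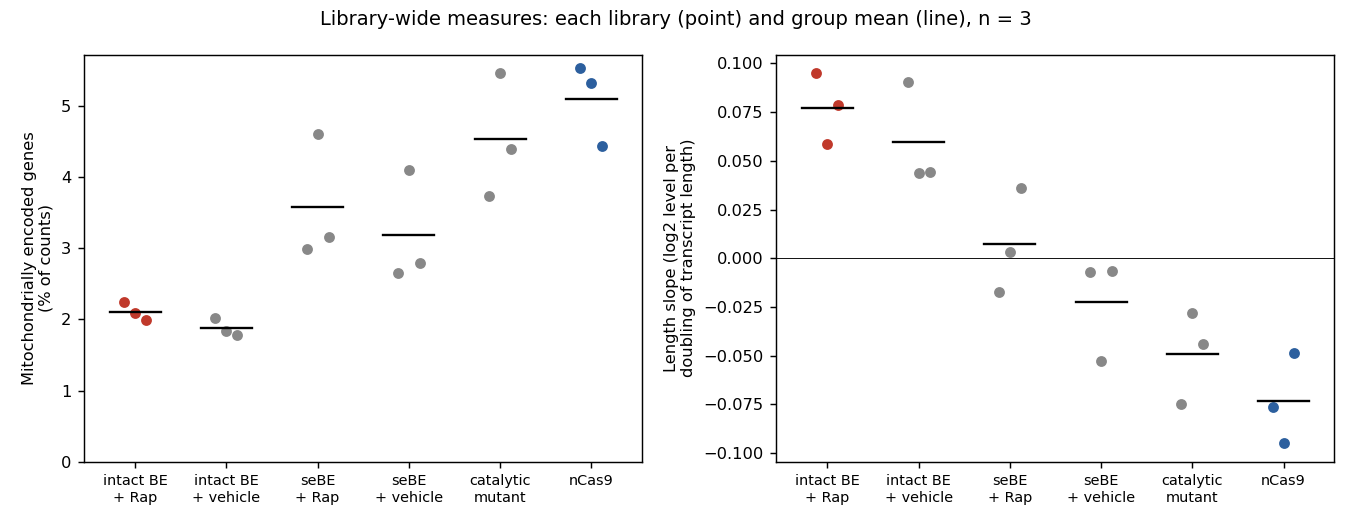
Left, share of counts from mitochondrially encoded genes in percent; right, slope of log2 level on transcript length, in log2 units per doubling of length against the mean library. Each point is 1 library and each line the mean of 3; intact BE with rapamycin (red) and intact BE under vehicle have the lowest mean shares on the left and the highest mean slopes on the right, and nCas9 has the highest mean share and the lowest mean slope.

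Of 14985 genes tested, 1990 were higher and 1736 lower in intact BE with rapamycin than in nCas9 at an edgeR adjusted p under 0.05, which is 24.9% of genes (13.3% higher, 11.6% lower). The libraries of the groups did not overlap in 36.0% of genes. Most differences were small, with a median size of 0.44 on the log2 scale among called genes. Of the called genes, 87 were at least 2-fold higher and 292 at least 2-fold lower. Without nCas9 replicate 2 the calls were 1604 higher and 1275 lower, leaving out other single libraries gave 2760 to 3693 in all, and with the length and GC trend removed 1800 higher and 1511 lower.

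**Figure D2:**
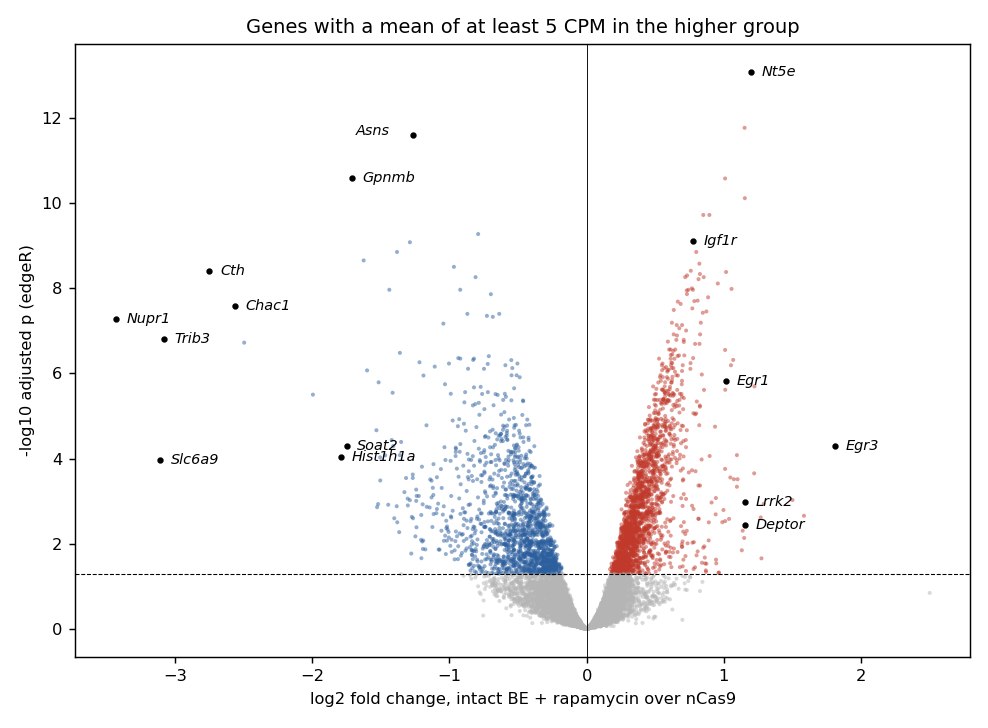
Genes with a mean of at least 5 CPM in the higher group, by log2 fold change of intact BE with rapamycin over nCas9 (x) and -log10 of the edgeR adjusted p (y); red, higher, and blue, lower, past the dashed threshold of 0.05. Nupr1, Slc6a9, Trib3, Cth and Chac1, labelled at the left, belong to the stress and amino acid genes described in the text.

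Genes of the integrated stress response and of ATF4-linked amino acid supply were mostly lower, and Nupr1, Slc6a9, Trib3, Cth and Chac1 were 5 of the 12 largest falls. That ranking took called genes with a mean of at least 5 CPM in the higher group, no overlap and no predicted or clone name. Of 17 tested stress response effectors (19 in the list), 11 were lower and 0 higher (median log2 fold change -0.79, against -0.04 over all genes tested). Of 17 genes of amino acid supply, 10 were lower and 3 higher (median -0.49), and Chac1 is in both lists. Without nCas9 replicate 2 the lower members numbered 11 and 9, and with the length and GC trend removed 12 and 10. These lists were chosen with earlier results of these data known.

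Atf4 itself had 311, 348 and 328 CPM in intact BE with rapamycin, against 586, 566 and 554 CPM in nCas9 (log2 fold change -0.79, SE 0.07, edgeR adjusted p = 5.4e-10). Nupr1, a small stress-induced chromatin-associated protein, had 0.878, 1.48 and 0.390 CPM with intact BE and rapamycin and 8.85, 11.98 and 8.89 CPM with nCas9. All 3 drug-treated libraries lay below all 3 nCas9 libraries (log2 fold change -3.43, SE 0.39, edgeR adjusted p = 5.3e-08). Trib3, a pseudokinase that is induced by ATF4 and restrains it, stood at 2.59, 2.09 and 0.975 CPM against 15.9, 18.8 and 13.7 CPM in nCas9 (log2 fold change -3.08, SE 0.34, edgeR adjusted p = 1.6e-07). Chac1, an enzyme that breaks down glutathione, stood at 1.89, 2.80 and 1.36 CPM against 11.1, 14.9 and 9.87 CPM in nCas9 (log2 fold change -2.57, SE 0.28, edgeR adjusted p = 2.6e-08). For each of these genes the lowest nCas9 library was above the highest library of intact BE with rapamycin.

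Among enzymes and carriers of amino acids, Cth, which makes cysteine from cystathionine, had 4.43, 3.87 and 4.14 CPM in intact BE with rapamycin, against 23.9, 37.9 and 22.4 CPM in nCas9 (log2 fold change -2.75, SE 0.25, edgeR adjusted p = 3.9e-09). Asns, asparagine synthetase, had 72.3, 60.8 and 63.2 CPM against 163, 169.8 and 139.5 CPM in nCas9 (log2 fold change -1.26, SE 0.09, edgeR adjusted p = 2.5e-12). Pck2, the mitochondrial phosphoenolpyruvate carboxykinase, had 60.5, 74.2 and 61.9 CPM against 165, 174 and 141 CPM in nCas9 (log2 fold change -1.29, SE 0.11, edgeR adjusted p = 8.4e-10). None of these groups overlapped. Slc6a9, a glycine transporter, was at 0.483, 1.22 and 0.244 CPM in intact BE with rapamycin and 4.32, 6.54 and 6.01 CPM in nCas9, where counts were few (log2 fold change -3.11, SE 0.57, edgeR adjusted p = 1.1e-04). Gcat, which splits the threonine product aminoketobutyrate into glycine, fell by 1.60 on the log2 scale (edgeR adjusted p = 8.5e-07). Against this direction, the cystine carrier Slc7a11 was higher at 186, 129.5 and 129.9 CPM, against 101, 90.4 and 99.4 CPM in nCas9 (log2 fold change 0.61, SE 0.15, edgeR adjusted p = 0.0065), a call that was lost when the length and GC trend was removed (log2 fold change 0.34, adjusted p = 0.17).

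ATF4 binds DNA at sites whose core reads TGATGNAA. RefSeq promoter windows (GRCm38.p6, 250 bases before to 50 after each start, an older build than the GRCm39 of the counts) were searched for these letters on both strands. The core was in 30.4% of 23 windows of stress response effectors and 38.9% of 18 windows of amino acid supply, against 3.97% of 32851 windows in all. By gene, it was in 7 of 18 effectors and 7 of 15 amino acid supply genes that had a window. Both lists hold genes chosen for a link to ATF4 or the stress response, so a share above that of all windows follows in part from that choice. The serine and one-carbon list had the core in 0 of 12 windows. Whether lowered members had it more often than other members was not tested. In these 3 lists 19 members were lower both against nCas9 and against vehicle, comparisons that share the drug-treated libraries, 17 of them had a window, and 6 of these had the core in it: Asns, Pck2, Chac1, Trib3, Nupr1 and Herpud1. The windows of Chac1, Trib3, Nupr1 and Asns, 4 of these 6 genes, are shown 5′ to 3′ on the gene's strand with the core, or its reverse complement, in capitals. They are chr2:119350992-119351291 (plus strand), chr2:152344011-152344310 (minus), chr7:126625421-126625720 (minus) and chr6:7693160-7693459 (minus).
Chac1: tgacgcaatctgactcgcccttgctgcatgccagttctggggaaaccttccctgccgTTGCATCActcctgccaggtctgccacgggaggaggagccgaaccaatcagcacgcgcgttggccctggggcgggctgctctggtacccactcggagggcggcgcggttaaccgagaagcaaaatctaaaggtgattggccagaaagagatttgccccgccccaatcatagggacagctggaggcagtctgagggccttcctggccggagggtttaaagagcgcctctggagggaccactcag
Trib3: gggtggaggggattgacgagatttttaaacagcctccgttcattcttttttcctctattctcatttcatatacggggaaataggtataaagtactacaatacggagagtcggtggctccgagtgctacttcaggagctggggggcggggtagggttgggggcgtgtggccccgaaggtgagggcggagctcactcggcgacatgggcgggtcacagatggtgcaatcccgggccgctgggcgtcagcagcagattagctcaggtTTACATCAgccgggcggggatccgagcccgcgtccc
Nupr1: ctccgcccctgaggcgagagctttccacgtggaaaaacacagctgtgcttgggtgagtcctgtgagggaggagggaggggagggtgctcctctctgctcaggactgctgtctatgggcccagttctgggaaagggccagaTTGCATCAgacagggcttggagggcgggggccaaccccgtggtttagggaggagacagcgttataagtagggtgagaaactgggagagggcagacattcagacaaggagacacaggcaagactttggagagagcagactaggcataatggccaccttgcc
Asns: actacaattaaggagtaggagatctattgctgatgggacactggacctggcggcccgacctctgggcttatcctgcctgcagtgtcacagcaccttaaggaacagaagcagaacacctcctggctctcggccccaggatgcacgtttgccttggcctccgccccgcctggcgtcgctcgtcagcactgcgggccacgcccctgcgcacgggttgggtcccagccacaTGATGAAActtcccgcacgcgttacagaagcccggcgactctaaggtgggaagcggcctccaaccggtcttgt
The core begins 193 bases before the annotated start in Chac1, 110 before it in Nupr1, 23 before it in Asns and 14 after it in Trib3. A match describes the sequence and does not show that ATF4 was bound.

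Nupr1, Trib3 and Asns stood at intermediate levels in intact BE cells under vehicle. Nupr1 had 3.74, 3.91 and 2.30 CPM under vehicle, Trib3 4.48, 8.91 and 6.11 CPM, and Asns 132, 137 and 111 CPM, in each case above the drug-treated and below the nCas9 libraries without overlap. With rapamycin against vehicle in intact BE cells, 497 genes were called, 3.32% of all tested (1.98% higher, 1.34% lower). The count was 214 without intact BE with rapamycin replicate 1 and 223 and 224 without intact BE under vehicle replicate 2 and replicate 3. In that comparison 8 of 17 stress response effectors were lower and 0 higher, and 8 of 17 amino acid supply genes were lower and 1 higher. Asns fell by 0.95 on the log2 scale against vehicle (SE 0.09, edgeR adjusted p = 8.4e-09), Cth fell by 1.97 (SE 0.25, adjusted p = 5.2e-06), and Atf4 fell by 0.39 (SE 0.07, adjusted p = 5.8e-04). Under vehicle against the same nCas9 libraries, 7 effectors were lower and 1 higher, and 6 of 17 amino acid supply genes were lower and 4 higher, where 9.83% of all genes were lower and 13.1% higher. The comparisons with rapamycin and with vehicle share the nCas9 libraries, and the size of the difference between them is the comparison of rapamycin with vehicle. Ddit3, the stress factor CHOP, was lower than nCas9 both with the drug (log2 fold change -1.52, edgeR adjusted p = 1.6e-06) and under vehicle (-1.32, adjusted p = 2.0e-05), and rapamycin against vehicle did not pass (-0.19, adjusted p = 0.76).

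Serine synthesis and mitochondrial one-carbon genes were lower with rapamycin and close to nCas9 under vehicle. Of 14 tested members, 8 were lower and 1 higher than in nCas9 (median log2 fold change -0.38), and under vehicle 1 was lower and 3 higher (median -0.04). Phgdh, the first enzyme of serine synthesis, had 125, 135 and 118 CPM in intact BE with rapamycin, 194, 228 and 217 CPM under vehicle and 215, 239 and 208 CPM in nCas9. Its drug-treated libraries lay below all others, and the vehicle and nCas9 libraries overlapped. The fold changes were -0.81 against nCas9 (SE 0.08, edgeR adjusted p = 5.5e-09) and -0.76 against vehicle (SE 0.08, adjusted p = 1.3e-07). Mthfd2, a mitochondrial folate enzyme, had 94.3, 115 and 111 CPM with rapamycin, 176, 192 and 172 CPM under vehicle and 179, 189 and 162 CPM in nCas9 (against nCas9, log2 fold change -0.73, SE 0.08, edgeR adjusted p = 4.5e-08). Shmt2, which moves a one-carbon unit from serine to folate in mitochondria, averaged 240.1 ± 23.1 CPM against 389 ± 9.31 CPM in nCas9 (SD, n = 3 each; log2 fold change -0.70, SE 0.07, edgeR adjusted p = 1.4e-08). Psat1 fell by 0.50 and Psph by 0.78 against nCas9 on the log2 scale (edgeR adjusted p = 5.9e-07 and 9.4e-06). The cytosolic enzyme Mthfd1 was higher than in nCas9, by 0.37 (edgeR adjusted p = 0.0013).

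Enzymes that charge tRNAs with amino acids were split. Of 19 tested, 7 were lower and 2 higher than in nCas9 (median log2 fold change -0.09), and against vehicle 10 were lower and 0 higher. Cars, the cysteine enzyme, had 63.5, 68.8 and 63.4 CPM in intact BE with rapamycin, against 129, 138 and 116 CPM in nCas9, with no overlap (log2 fold change -0.97, SE 0.09, edgeR adjusted p = 3.2e-09). Yars, the tyrosine enzyme, had 112, 122 and 114 CPM against 184, 187 and 169 CPM in nCas9 (log2 fold change -0.64, SE 0.07, edgeR adjusted p = 4.0e-08). Gars and Mars fell by 0.51 and 0.53 on the log2 scale (edgeR adjusted p = 1.1e-06 and 2.2e-06). Dars and Eprs were higher, by 0.28 and 0.29 (edgeR adjusted p = 0.0076 and 0.0029). TGATGNAA was in 38.5% of the 13 promoter windows matched for this list.

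Sterol and fatty acid genes were called lower more than higher with rapamycin, and higher more than lower under vehicle. Of 26 cholesterol synthesis genes, 4 were higher and 9 lower than nCas9 with rapamycin (median log2 fold change -0.06), whereas under vehicle 10 were higher and 1 lower (median 0.13). Of 14 fatty acid synthesis genes, 4 were higher and 7 lower with rapamycin, and 7 were higher and 0 lower under vehicle. Rapamycin against vehicle, which tests that difference gene by gene, gave 7 lower cholesterol genes and 4 lower fatty acid genes, with 0 higher in either list. Both comparisons with nCas9 share its 3 libraries.

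Acat2, which makes acetoacetyl-CoA for the sterol pathway, had 84.3, 118 and 91.0 CPM in intact BE with rapamycin, 139, 161 and 159.7 CPM under vehicle and 141, 151 and 146 CPM in nCas9. Only the drug-treated libraries stood apart, as the lowest (against nCas9, log2 fold change -0.58, SE 0.10, edgeR adjusted p = 2.5e-05; against vehicle -0.65, adjusted p = 3.0e-05). Lss, lanosterol synthase, had 89.9, 120.0 and 98.4 CPM with rapamycin, 130.5, 158 and 150.0 CPM under vehicle and 168, 149.8 and 141 CPM in nCas9 (against nCas9, log2 fold change -0.57, SE 0.10, edgeR adjusted p = 1.2e-04). Fads2, a fatty acid desaturase, had 102, 116 and 109 CPM with rapamycin, 144, 188 and 165 CPM under vehicle and 163, 175 and 159 CPM in nCas9 (against nCas9, log2 fold change -0.61, SE 0.09, edgeR adjusted p = 4.2e-06). The stearoyl-CoA desaturase Scd2 had 544, 653 and 571 CPM with rapamycin, 839, 975 and 861 CPM under vehicle and 738, 784 and 729 CPM in nCas9. It was below nCas9 with the drug (-0.35, edgeR adjusted p = 0.0011) and above it under vehicle (0.25, adjusted p = 0.019). Idi1, which isomerizes isopentenyl diphosphate, stayed above nCas9 with 129, 143 and 139 CPM, against 85.1, 89.9 and 114 CPM in nCas9 (log2 fold change 0.50, SE 0.10, edgeR adjusted p = 3.3e-04). Srebf2, the sterol regulator, and Fasn, fatty acid synthase, were also higher than in nCas9, by 0.30 and 0.29 (edgeR adjusted p = 0.0042 and 0.0029).

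**Figure D3:**
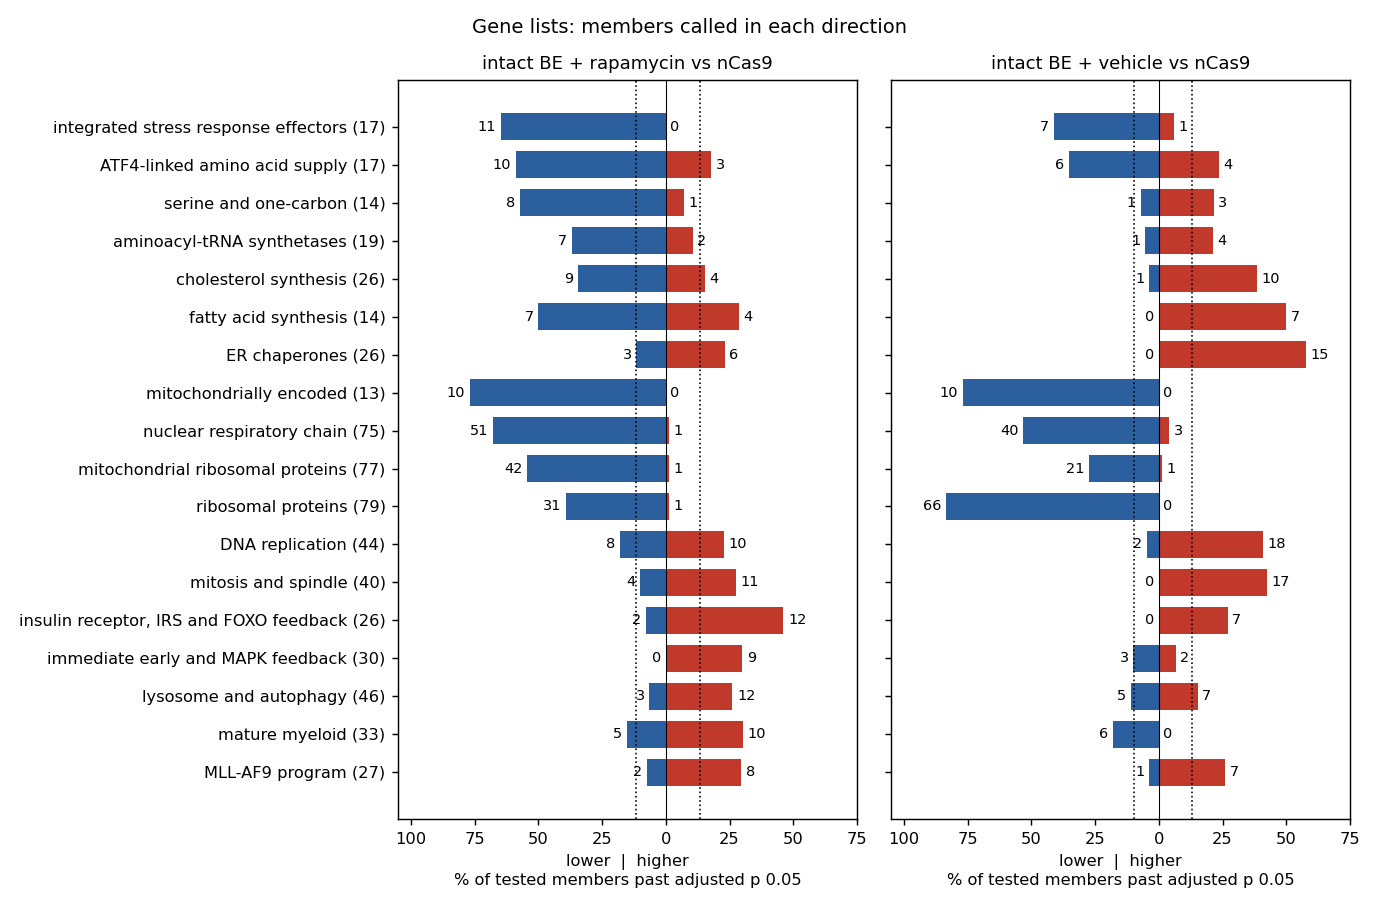
Share of tested members of 18 gene lists called higher (red, right) or lower (blue, left) than in nCas9, for intact BE with rapamycin (left panel) and intact BE under vehicle (right panel); the number of called members stands at each bar, the number tested in brackets, and dotted lines mark the shares over all genes. With rapamycin, the sterol list had 4 members higher and 9 lower, the fatty acid list 4 and 7, and the ER chaperone list 6 and 3, against 10 and 1, 7 and 0, and 15 and 0 under vehicle.

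Transcripts for mitochondria were lower with and without the drug. Of 13 mitochondrially encoded genes tested, 10 were lower and 0 higher than in nCas9 (median log2 fold change -1.30). mt-Nd1, a subunit of respiratory complex I, had 2762, 2616 and 2505 CPM in intact BE with rapamycin, against 7195, 6623 and 5806 CPM in nCas9 (log2 fold change -1.32, SE 0.19, edgeR adjusted p = 2.9e-04). mt-Cytb, of complex III, had 3665, 3337 and 3510.0 CPM against 8959, 8639 and 7217 CPM in nCas9 (log2 fold change -1.24, SE 0.20, edgeR adjusted p = 7.5e-04). The groups did not overlap for either gene, and under vehicle mt-Cytb stood at 3309, 2796 and 2820.0 CPM. Nuclear copies of mitochondrial sequence can share reads with these genes, and how such reads were counted is not given in the sources used here.

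Of 75 nuclear genes for respiratory chain subunits, 51 were lower and 1 higher (median log2 fold change -0.36), and of 77 mitochondrial ribosomal protein genes 42 were lower and 1 higher (median -0.31). These transcripts are short, and with the length and GC trend removed the counts were 27 lower and 3 higher, and 31 lower and 1 higher. Uqcrq, of complex III, had 77.9, 74.5 and 78.3 CPM in intact BE with rapamycin, against 154, 152 and 130.5 CPM in nCas9 (log2 fold change -0.92, SE 0.10, edgeR adjusted p = 1.1e-08). Mrpl54, of the large mitochondrial ribosomal subunit, had 48.0, 46.9 and 39.3 CPM against 75.3, 73.8 and 80.0 CPM in nCas9 (log2 fold change -0.77, SE 0.11, edgeR adjusted p = 2.1e-06). Neither gene overlapped between the groups, and with the trend removed their log2 fold changes were -0.78 and -0.36, both past the threshold.

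Cytosolic ribosomal protein genes were lower than nCas9 by less with rapamycin than under vehicle. Of 79 tested, 31 were lower and 1 higher with the drug (median log2 fold change -0.18), and 66 were lower and 0 higher under vehicle (median -0.40). Rapamycin against vehicle raised 27 and lowered 0. Rpl26 had 959.7, 1031 and 902 CPM with rapamycin, 755, 759 and 752 CPM under vehicle and 1297, 1325 and 1201 CPM in nCas9, so that no groups overlapped and vehicle was lowest (against nCas9, log2 fold change -0.40, SE 0.08, edgeR adjusted p = 2.9e-04; against vehicle 0.35, adjusted p = 0.0072), and with the length and GC trend removed it was at -0.05 against nCas9 and not called. Rps19 had 950.1, 999.7 and 989.7 CPM with rapamycin, against 1277, 1226 and 1203 CPM in nCas9 (log2 fold change -0.33, SE 0.08, edgeR adjusted p = 0.0013). With the length and GC trend removed, 10 ribosomal protein genes were lower and 13 higher than in nCas9 (median 0.02). Without nCas9 replicate 1 there were 17 lower and 0 higher, and without nCas9 replicate 2, or intact BE with rapamycin replicate 1, 18 lower and 1 higher. Processed copies of these genes can share their reads. Of 17 snoRNA hosts and nuclear RNAs, 10 were lower and 1 higher, and without nCas9 replicate 1, 6 were lower and 0 higher. A snoRNA host carries in its introns small RNAs that guide ribosomal RNA modification. Snhg5 had 49.3, 53.1 and 43.1 CPM in intact BE with rapamycin, against 92.7, 94.3 and 78.9 CPM in nCas9 (log2 fold change -0.87, SE 0.10, edgeR adjusted p = 4.0e-08), and Gas5 had 293, 293 and 263 CPM against 415, 439 and 374 CPM (log2 fold change -0.53, SE 0.09, edgeR adjusted p = 2.9e-05).

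Growth factor receptor and early signaling genes were among those that rose. Of 26 genes of the insulin receptor, PI3K and FOXO network, 12 were higher and 2 lower than in nCas9 (median log2 fold change 0.25), and 7 were higher and 0 lower under vehicle. Igf1r, the insulin-like growth factor receptor, had 517, 459 and 458 CPM in intact BE with rapamycin, 338, 310.5 and 323 CPM under vehicle and 280.5, 269 and 290.0 CPM in nCas9. All 3 groups were separate (against nCas9, log2 fold change 0.77, SE 0.07, edgeR adjusted p = 8.0e-10; against vehicle 0.56, adjusted p = 2.3e-06). Pdpk1, the kinase that activates AKT, had 114, 108 and 115 CPM with rapamycin, 117, 104 and 105 CPM under vehicle and 75.1, 74.1 and 79.5 CPM in nCas9, so that drug and vehicle overlapped and both lay above nCas9 (against nCas9, log2 fold change 0.56, SE 0.08, edgeR adjusted p = 6.7e-06). Insr and Pik3ca were higher by 0.41 and 0.51 (edgeR adjusted p = 9.2e-04 and 3.7e-05). Ccng2, a cyclin induced by FOXO factors, was higher than in nCas9 by 0.72 and than under vehicle by 0.61 (edgeR adjusted p = 3.7e-05 and 0.0021). Without nCas9 replicate 2 the list had 9 higher and 0 lower members, and with the length and GC trend removed 11 higher and 4 lower.

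Of 30 immediate early and MAPK feedback genes, 9 were higher and 0 lower than in nCas9 (median 0.34). Egr1, a transcription factor induced within minutes by ERK signaling, had 121, 84.5 and 84.3 CPM in intact BE with rapamycin, 38.8, 36.3 and 34.3 CPM under vehicle and 49.7, 46.8 and 47.2 CPM in nCas9. The drug-treated libraries were highest and the vehicle libraries lowest, without overlap (against nCas9, log2 fold change 1.01, SE 0.13, edgeR adjusted p = 1.5e-06; against vehicle 1.41, adjusted p = 5.7e-08). Egr3, its relative, had 18.8, 9.73 and 8.19 CPM with rapamycin, 2.55, 1.82 and 1.88 CPM under vehicle and 3.24, 3.78 and 3.47 CPM in nCas9 (against nCas9, log2 fold change 1.81, SE 0.31, edgeR adjusted p = 5.0e-05). Replicate 1 stood above the other libraries with rapamycin, and all 3 lay above every vehicle and nCas9 library. Dusp6, a phosphatase of ERK, had 138, 116 and 109 CPM with rapamycin against 87.8, 90.3 and 80.5 CPM in nCas9 (log2 fold change 0.49, SE 0.09, edgeR adjusted p = 5.5e-05). Myc had 222, 228 and 231 CPM against 171, 176 and 179 CPM in nCas9 (log2 fold change 0.37, SE 0.07, edgeR adjusted p = 6.7e-05), and Fos and Junb did not pass (log2 fold change 0.21 and 0.42, edgeR adjusted p = 0.54 and 0.055).

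Other genes at the top of the ranking were of varied function. Nt5e, the ecto-enzyme CD73 that makes adenosine from AMP, had 326, 296 and 300.0 CPM in intact BE with rapamycin, 192, 176 and 172 CPM under vehicle and 135, 128 and 139 CPM in nCas9, each group apart from the next (against nCas9, log2 fold change 1.20, SE 0.07, edgeR adjusted p = 8.4e-14). Mgam, a maltase of neutrophils and gut, had 510.1, 433 and 435 CPM against 212, 192 and 215 CPM in nCas9 (log2 fold change 1.15, SE 0.09, edgeR adjusted p = 7.7e-11). Lrrk2, a kinase of endolysosomal membranes, had 20.6, 18.1 and 14.4 CPM against 9.72, 6.09 and 7.96 CPM in nCas9 (log2 fold change 1.16, SE 0.25, edgeR adjusted p = 0.001). Deptor, a protein that binds and inhibits mTOR, had 6.36, 6.57 and 8.10 CPM against 1.67, 3.08 and 4.64 CPM in nCas9 (log2 fold change 1.16, SE 0.30, edgeR adjusted p = 0.0037), and against vehicle it did not pass (0.42, adjusted p = 0.57). These groups did not overlap. Other large rises were Gem, Rnf144b, Serpinb2, Tcp11l2 and Zfp128, between 1.15 and 1.29 on the log2 scale. Serpinb2 was not called without intact BE with rapamycin replicate 1 (log2 fold change 0.80, edgeR adjusted p = 0.10), nor without nCas9 replicate 1 or 3 (adjusted p = 0.073 and 0.093). Zfp128 was not called without intact BE with rapamycin replicate 1 (0.94, adjusted p = 0.062).

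Among the largest falls outside the stress genes, Gpnmb, a glycoprotein of lysosomes and melanosomes, had 11.5, 12.5 and 13.6 CPM in intact BE with rapamycin, 20.1, 24.6 and 24.3 CPM under vehicle and 38.4, 42.7 and 42.1 CPM in nCas9, each group apart (against nCas9, log2 fold change -1.71, SE 0.13, edgeR adjusted p = 2.7e-11). P2rx3, an ATP-gated channel, had 6.76, 8.15 and 8.05 CPM against 37.4, 56.8 and 35.5 CPM in nCas9 (log2 fold change -2.50, SE 0.24, edgeR adjusted p = 1.9e-07). Ighm, the immunoglobulin mu heavy chain, had 17.8, 12.7 and 13.7 CPM against 45.8, 54.6 and 36.8 CPM in nCas9 (log2 fold change -1.62, SE 0.15, edgeR adjusted p = 2.2e-09). Soat2, a sterol esterifying enzyme, fell by 1.75 on the log2 scale (edgeR adjusted p = 5.1e-05), and Ovgp1, an oviduct glycoprotein, was also among the 12 largest falls.

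**Figure D4:**
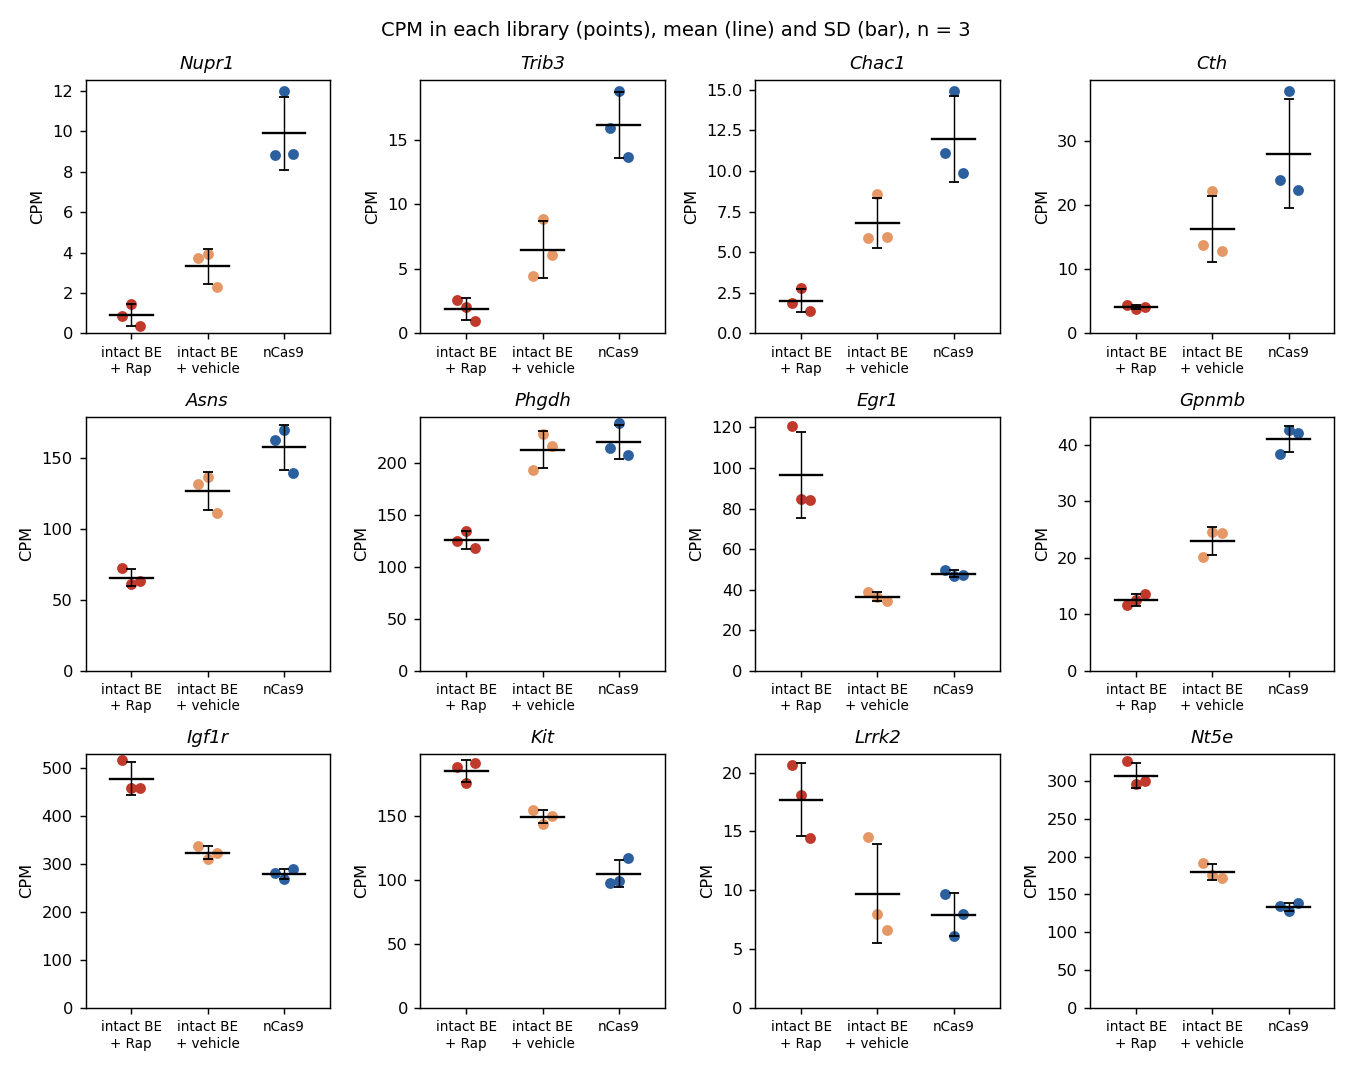
CPM of 12 genes in each library (points) with the group mean (line) and SD (bar), n = 3, for intact BE with rapamycin, intact BE under vehicle and nCas9, on linear axes from 0. In Nupr1, Trib3, Chac1, Cth and Asns vehicle lies between the other groups, in Phgdh it lies with nCas9, and in Egr1 it lies below nCas9 while rapamycin lies above.

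Myeloid genes moved in part with the drug. Of 33 genes of mature myeloid cells, 10 were higher and 5 lower than in nCas9, and under vehicle 0 were higher and 6 lower. Rapamycin against vehicle raised 6 and lowered 1. Without intact BE with rapamycin replicate 1, 7 were higher and 2 lower than in nCas9. Itgam, the integrin CD11b, had 223, 193 and 186 CPM in intact BE with rapamycin, 130.5, 143 and 130.5 CPM under vehicle and 151, 158 and 142 CPM in nCas9 (against nCas9, log2 fold change 0.42, SE 0.08, edgeR adjusted p = 1.5e-04). Ccr1, a chemokine receptor, had 89.1, 63.3 and 63.4 CPM with rapamycin, 50.7, 44.4 and 36.2 CPM under vehicle and 43.6, 50.6 and 40.6 CPM in nCas9 (against nCas9, log2 fold change 0.68, SE 0.12, edgeR adjusted p = 8.1e-05). For both, the drug-treated libraries were the highest without overlap, and vehicle overlapped nCas9. Irf8, a factor of monocyte and dendritic lineages, went the other way, with 51.9, 59.2 and 54.5 CPM in intact BE with rapamycin, 83.5, 85.0 and 87.2 CPM under vehicle and 84.0, 76.3 and 73.0 CPM in nCas9 (against nCas9, log2 fold change -0.50, SE 0.09, edgeR adjusted p = 9.0e-05). Of 20 primary granule and lineage genes, 8 were higher and 2 lower than in nCas9, with a median log2 fold change of 0.19. The granule protease Ctsg, 1 of the 2 that were lower, fell by 0.47 (edgeR adjusted p = 9.5e-06), and Gata2, a stem and mast cell factor, rose by 0.47 (edgeR adjusted p = 8.6e-05).

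Of 27 genes linked to the MLL-AF9 program, 8 were higher and 2 lower. Kit, the stem cell factor receptor, had 188, 176 and 192 CPM in intact BE with rapamycin, 154, 144 and 149.8 CPM under vehicle and 97.7, 99.2 and 117 CPM in nCas9, with all groups apart (against nCas9, log2 fold change 0.82, SE 0.08, edgeR adjusted p = 2.7e-09; against vehicle 0.31, adjusted p = 0.018). Runx2 and Sox4, transcription factors, were higher by 0.51 and 0.50 (edgeR adjusted p = 3.1e-06 and 1.1e-05). Hoxa9, a direct target of the fusion, had 248, 278 and 272 CPM with rapamycin against 294, 323 and 320.2 CPM in nCas9 (log2 fold change -0.23, SE 0.07, edgeR adjusted p = 0.0088), and the call was lost without intact BE with rapamycin replicate 1 (adjusted p = 0.082) and without nCas9 replicate 2 (adjusted p = 0.052). Its partner Meis1 did not pass (log2 fold change 0.01, SE 0.09, edgeR adjusted p = 0.96), and with the length and GC trend removed it was lower (-0.25, adjusted p = 0.038).

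Replication, mitosis and chaperone lists held higher members with rapamycin and under vehicle, and all but the heat shock list also held lower ones with rapamycin. Over all genes tested, 13.3% were higher and 11.6% lower than in nCas9 with rapamycin, and 13.1% and 9.83% under vehicle. Of 44 replication genes, 10 were higher and 8 lower with rapamycin (median log2 fold change -0.01), and 18 higher and 2 lower under vehicle. Rapamycin against vehicle lowered 3. Mcm4, a subunit of the replicative helicase, had 296, 271 and 301 CPM in intact BE with rapamycin, against 189, 188 and 219 CPM in nCas9 (log2 fold change 0.54, SE 0.08, edgeR adjusted p = 1.2e-05). Prim1, the primase, had 76.4, 80.8 and 84.0 CPM against 107, 108 and 99.7 CPM in nCas9 (log2 fold change -0.38, SE 0.08, edgeR adjusted p = 3.6e-04). Of 40 mitosis and spindle genes, 11 were higher and 4 lower, and Top2a, topoisomerase II alpha, had 815, 789.8 and 834 CPM against 536, 553 and 619.7 CPM in nCas9 (log2 fold change 0.51, SE 0.08, edgeR adjusted p = 1.4e-05). Of 26 ER chaperone genes, 6 were higher and 3 lower with rapamycin (2 and 2 without intact BE with rapamycin replicate 1, 3 and 2 without nCas9 replicate 1), 15 higher and 0 lower under vehicle, and 9 lower and 1 higher with rapamycin against vehicle. Hspa5, the ER chaperone BiP, was not called against nCas9 (-0.06, edgeR adjusted p = 0.6) and fell by 0.35 against vehicle (adjusted p = 0.0024). Crebrf, a regulator of the ER stress response, rose by 0.77 against nCas9 and 0.89 against vehicle (edgeR adjusted p = 1.9e-04 and 1.8e-04). Of 28 heat shock chaperones 8 were higher and 0 lower, and Hsp90ab1 had 2650.0, 2785 and 2716 CPM in intact BE with rapamycin, against 1960.0, 1976 and 2272 CPM in nCas9 (log2 fold change 0.39, SE 0.08, edgeR adjusted p = 2.1e-04). The count of higher heat shock chaperones was 2 without nCas9 replicate 1, 5 without nCas9 replicate 2, and 4 without intact BE with rapamycin replicate 1 or replicate 3.

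Base excision and recombination repair genes were called in both directions, and p53 targets were called lower more than higher. Of 26 base excision and uracil repair genes, 4 were higher and 5 lower than in nCas9, and of 40 homologous recombination, Fanconi and checkpoint genes 5 were higher and 3 lower, against 24.9% called in either direction over all genes. With the length and GC trend removed, the counts were 5 higher and 5 lower, and 2 higher and 7 lower. Ung, which removes uracil from DNA, had 29.3, 27.7 and 27.5 CPM in intact BE with rapamycin and 22.7, 24.0 and 28.3 CPM in nCas9, with overlap (log2 fold change 0.17, SE 0.13, edgeR adjusted p = 0.37). Tdg and Parp1, of base excision repair, rose by 0.39 and 0.33, and Xrcc1 fell by 0.44 (edgeR adjusted p = 0.0021, 0.0012 and 0.0014). Atm, the damage checkpoint kinase and a long transcript, had 69.5, 63.8 and 68.3 CPM against 39.9, 38.2 and 39.3 CPM in nCas9 (log2 fold change 0.78, SE 0.12, edgeR adjusted p = 8.6e-06), and the log2 fold change was 0.48 with the trend removed. Of 36 p53 targets, 3 were higher and 8 lower (median -0.14), where 13.3% of all genes were higher and 11.6% lower. With the trend removed 2 were higher and 8 lower. Cdkn1a, the cell cycle inhibitor p21, had 151, 163 and 147 CPM with rapamycin and 145, 151 and 174 CPM in nCas9 (log2 fold change -0.03, SE 0.08, edgeR adjusted p = 0.84), and Mdm2, the p53 ubiquitin ligase, did not pass (log2 fold change 0.10, SE 0.07, edgeR adjusted p = 0.35). The mouse gene Apobec1, of the deaminase family that cytosine base editors draw on, had 28.5, 23.8 and 23.2 CPM in intact BE with rapamycin, against 36.5, 40.5 and 30.7 CPM in nCas9 (log2 fold change -0.51, SE 0.13, edgeR adjusted p = 0.0037). Whether reads from the transgene reach this gene in the authors' alignment is not given in the sources used here.

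The genes of the drug's direct partners did not differ past the threshold. Fkbp1a had 201, 195 and 199.8 CPM in intact BE with rapamycin and 195, 198 and 179.8 CPM in nCas9 (log2 fold change 0.06, SE 0.07, edgeR adjusted p = 0.62), and Mtor had 67.8, 72.2 and 67.5 CPM in intact BE with rapamycin and 64.7, 54.9 and 63.6 CPM in nCas9 (log2 fold change 0.18, SE 0.08, edgeR adjusted p = 0.12). Of 34 genes of the mTOR machinery, 7 were higher and 5 lower. Sesn2, a leucine sensor that restrains mTORC1, had 24.2, 25.5 and 24.8 CPM with rapamycin against 41.2, 46.5 and 44.0 CPM in nCas9 (log2 fold change -0.82, SE 0.10, edgeR adjusted p = 4.5e-07). Rps6kb2, an S6 kinase, had 20.3, 21.4 and 21.9 CPM against 34.3, 44.4 and 38.6 CPM in nCas9 (log2 fold change -0.88, SE 0.14, edgeR adjusted p = 2.2e-05), and rapamycin against vehicle did not pass (0.03, adjusted p = 0.97). Pdcd4, a translation inhibitor degraded downstream of S6 kinase, was higher by 0.49 (edgeR adjusted p = 4.2e-06).

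Genes called higher in intact BE with rapamycin both against nCas9 and against vehicle numbered 166, and those called lower in both 113. These counts took genes of at least 5 CPM, without overlap against nCas9 and without a predicted or clone name. Over all 14985 genes tested, 296 (1.98%) were higher and 201 (1.34%) lower against vehicle, and 13.3% were higher and 11.6% lower against nCas9. Both comparisons share the drug-treated libraries. Some genes that differed from nCas9 under vehicle by at least 0.5 on the log2 scale were shifted back by rapamycin past the threshold. There were 14 such genes higher under vehicle and 32 lower, and the vehicle libraries enter both of the comparisons that choose them. Under vehicle 13.1% of all genes were called higher and 9.83% lower than in nCas9. How many of those differed by at least 0.5 is not given here, so how common such a shift back was cannot be read from these counts. Sec24d, a COPII coat protein of ER export, had 26.4, 25.2 and 28.4 CPM in intact BE with rapamycin, 46.7, 46.4 and 51.4 CPM under vehicle and 32.1, 22.6 and 33.9 CPM in nCas9. Drug and nCas9 overlapped and vehicle stood above both, and the drug-treated cells did not differ from nCas9 past the threshold (log2 fold change -0.15, SE 0.13, edgeR adjusted p = 0.45). Cpox, an enzyme of heme synthesis, had 13.2, 13.8 and 15.2 CPM with rapamycin, 21.3, 24.7 and 18.1 CPM under vehicle and 8.69, 10.2 and 11.9 CPM in nCas9, and stayed higher than nCas9 (log2 fold change 0.45, SE 0.17, edgeR adjusted p = 0.042), a call lost under each library left out but nCas9 replicate 3 (adjusted p from 0.054 to 0.19). Creb3l2, Amot, Pls3 and Snx7 were between -0.18 and 0.09 against nCas9 with rapamycin, and none passed. In the other direction, Rasgrp4, a Ras exchange factor of mast cells, had 14.6, 18.2 and 16.2 CPM with rapamycin, 8.73, 9.38 and 8.09 CPM under vehicle and 13.5, 15.9 and 16.9 CPM in nCas9 (against nCas9, log2 fold change 0.08, SE 0.15, edgeR adjusted p = 0.76). Ptprn and Il1rn, the interleukin-1 receptor antagonist, were likewise at 0.32 and 0.23 against nCas9 without passing. Slc12a5, a potassium chloride cotransporter, stood at -0.67 (adjusted p = 0.063), and the clone-named CR974462.1 stayed lower at -1.09 (edgeR adjusted p = 0.0015). Cd200r3 was lower than nCas9 under vehicle (-0.76) and higher with rapamycin (log2 fold change 0.59, SE 0.17, edgeR adjusted p = 0.0093), and without nCas9 replicate 1 the rise was not called (adjusted p = 0.070).

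Differences from nCas9 with rapamycin were set beside those of intact BE under vehicle from the catalytic mutant, a comparison with no library in common. Drug and reference construct both differ between these comparisons, so their parts in a match or mismatch cannot be told apart. Between intact BE under vehicle and the catalytic mutant, 3141 genes were called, 21.0% of those tested (11.6% higher, 9.33% lower). Of these, 1701 (54.2%) were called the same way between intact BE with rapamycin and nCas9, 42 (1.34%) the opposite way and 1398 were not called. The 1701 are 45.7% of the 3726 genes called between intact BE with rapamycin and nCas9. Genes higher in intact BE under vehicle matched in 57.2% of 1743, and lower ones in 50.4% of 1398. Over all genes tested, 13.3% were higher and 11.6% lower between intact BE with rapamycin and nCas9. The catalytic mutant, like nCas9, had a higher mitochondrial share (4.53% ± 0.88) and a lower length slope (-0.049 ± 0.024) than intact BE under vehicle (1.88% ± 0.13 and 0.060 ± 0.027; SD, n = 3 each), and their part in the match was not tested beyond the removal of the trend. With the length and GC trend removed the share was 60.0%, but of fewer genes, 947 of 1579 in place of 1701 of 3141. Over single left-out libraries the lowest share was 41.1% (1273 of 3096), without intact BE with rapamycin replicate 3. The highest was 65.2% (1084 of 1662), without intact BE under vehicle replicate 1. Nt5e was called the same way, at 0.37 between intact BE under vehicle and the catalytic mutant (edgeR adjusted p = 5.0e-04). Gpnmb did not pass there (-0.20, adjusted p = 0.32), and Asns was called the opposite way, higher in intact BE under vehicle than in the catalytic mutant by 0.36 (edgeR adjusted p = 0.0031).

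**Figure D5:**
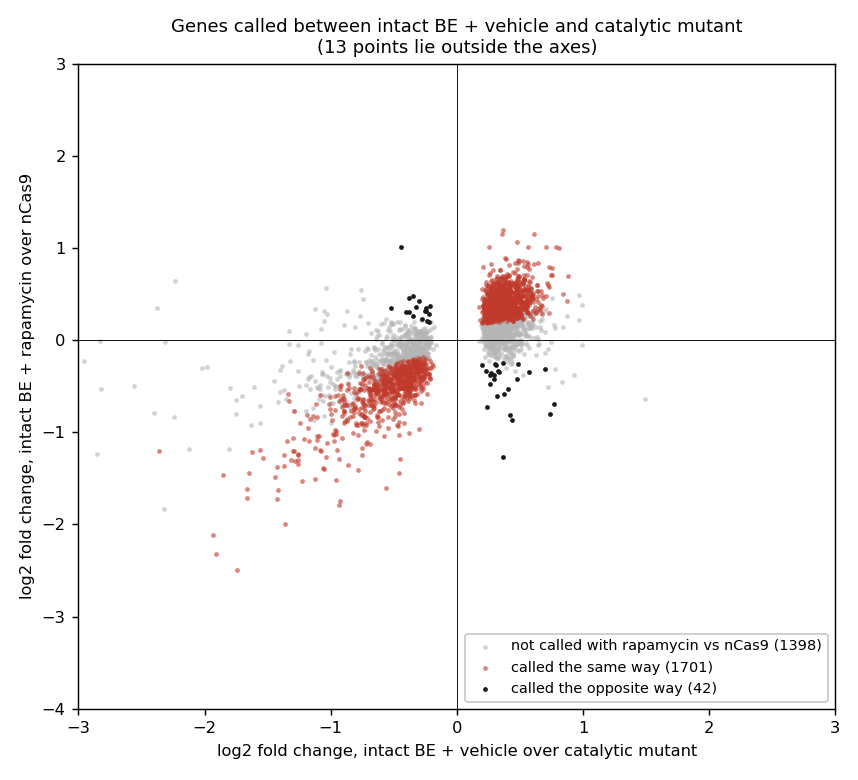
Genes called between intact BE under vehicle and the catalytic mutant, by their log2 fold change there (x) and by that of intact BE with rapamycin over nCas9 (y), comparisons that share no library; red, called the same way in both (1701), black, the opposite way (42), grey, not called on the y axis (1398). Red points lie at the upper right and lower left and outnumber black ones, and 13 genes lie outside the axes.

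Set against other groups, the drug-treated intact BE cells differed to unequal extents. Against the catalytic mutant, 1944 genes were higher and 1699 lower, 24.3% of those tested, and 2289 in all with the length and GC trend removed. Against seBE with the same drug, 398 were higher and 305 lower, 4.69%. That count was 256 without intact BE with rapamycin replicate 1, 353 without replicate 3, 277 without seBE with rapamycin replicate 2 and 1114 without seBE with rapamycin replicate 3. Asns had 72.3, 60.8 and 63.2 CPM in intact BE with rapamycin, against 88.3, 92.5 and 91.9 CPM in seBE with rapamycin (log2 fold change -0.47, edgeR adjusted p = 0.0011). Phgdh had 179, 152 and 157 CPM in seBE with rapamycin (-0.37, adjusted p = 0.0047), and Egr1 54.4, 35.0 and 41.5 CPM (1.15, adjusted p = 1.6e-06). For these 3 genes the libraries of intact BE with rapamycin did not overlap those of seBE with rapamycin. Of the cholesterol synthesis genes, 9 were higher and 0 lower in intact BE than in seBE under the drug, where 2.66% of all genes were higher and 2.04% lower. In seBE cells, rapamycin against vehicle called 0 genes by edgeR, 493 at an unadjusted p under 0.05 and 1 by DESeq2. Asns there had 88.3, 92.5 and 91.9 CPM with rapamycin and 107, 100.1 and 95.2 CPM under vehicle (-0.15, edgeR adjusted p = 1), and Phgdh had 179, 152 and 157 CPM with rapamycin and 203, 199 and 192 CPM under vehicle (-0.28, adjusted p = 1). Rapamycin also induces the seBE editor, so drug and induction cannot be told apart in seBE cells. Whether the drug effect differs between intact BE and seBE was not tested here.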

How the data were processed

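PolyA-selected directional mRNA libraries from sorted cells were sequenced. The deposited table holds raw counts per gene, made by the authors with fastp 1.0.1, STAR 2.7.1a, SAMtools 1.9 and featureCounts (Subread 2.0.3) against GRCm39, per the submitters' processing notes, which also name DESeq2. No source used here names the annotation release or strand setting, so whether a gene and an overlapping antisense gene share counts is not known.

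Genes were filtered with filterByExpr, scaled by TMM and tested with edgeR 4.0.16 (robust quasi-likelihood, R 4.3.3) in 1 model of all 18 libraries, with Benjamini-Hochberg adjustment over 14985 genes. CPM are on TMM-scaled library sizes. Totals ran from 13835979 to 23284932 counts per library. The standard error is the log2 fold change divided by the root of its F. The biological coefficient of variation was 13.3%. The code was tested on simulated data. Alternatives were DESeq2 1.42.0, other count filters, the compared libraries alone, thinning, leaving out mitochondrial genes, single libraries left out, a replicate block, and removal of a length and GC trend (lengths from GENCODE M21).

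Genes named are the largest changes without overlap, up to 4 called members of each list by adjusted p, genes also changed or opposed against vehicle, and fixed check genes. Members and lists were chosen with earlier results of these data known. Dars, Ddit3, Eprs, Fasn, Fos, Hspa5, Insr, Junb, Mthfd1, Psph and Srebf2 fall outside that rule and were chosen after their values were seen. Of 1179 list symbols, 6 were unmatched. Some genes that the rule names are not reported here.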

Additional observations from a re-analysis of the deposited data

Results flagged for a closer look

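Over all genes tested, 8 passed the edgeR test in 3 comparisons: they were called in opposite directions for intact BE with rapamycin and for intact BE under vehicle, each against nCas9, and were also called for rapamycin against vehicle in intact BE cells. Each pair of these comparisons shares libraries. Rapamycin against vehicle is the difference between the comparisons with nCas9, so its call adds no separate support. The differences, rapamycin minus vehicle on the log2 scale, were 1.41 for Egr1, 1.35 for Cd200r3, 0.71 for the kinase Tec, 0.61 for Cox7a2l, a respiratory supercomplex factor, 0.57 for the lysozyme Lyz2, -0.49 for the amino acid carrier Slc7a5, -0.60 for Scd2 and -0.81 for the choline dehydrogenase Chdh. Lyz2 stood at 640.5 ± 46.4 CPM with rapamycin, 432 ± 3.90 CPM under vehicle and 534 ± 40.5 CPM in nCas9, and Slc7a5 at 131 ± 6.73 CPM with rapamycin, 184 ± 9.70 CPM under vehicle and 153 ± 2.27 CPM in nCas9 (SD, n = 3 each). The cause was not tested.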

How the results depend on the processing

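Against nCas9, genes called numbered 3311 to 4004 under DESeq2, other filters, thinning, the compared libraries alone and trend removal, and 2760 to 3693 with 1 library left out. Of 178 named gene results, 162 were past the threshold and 128 of these kept their call and direction under every alternative run. Meis1 changed sign with the length and GC trend removed, to -0.25 without and -0.25 with a replicate block. Rapamycin against vehicle gave 497 genes, 873 with the compared libraries alone and 214 to 398 with 1 library left out. Intact BE against seBE, both with rapamycin, gave 703 genes, 312 with the compared libraries alone and 256 to 1114 with 1 library left out. Against the catalytic mutant, trend removal gave 2289 genes. The share of genes matched between comparisons with no shared library was 54.2% (1701 of 3141), and 49.5% with the compared libraries alone. With the trend removed it was 60.0%, of fewer genes (947 of 1579), and with 1 library left out 41.1% to 65.2%. The ratio of mitochondrial shares ran from 0.388 to 0.432. The cause of these shifts was not tested.

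The groups share replicate numbers. Deviations of same-numbered libraries from their group means correlated between -0.032 and 0.098 over the pairs of groups compared. For intact BE with rapamycin and nCas9 the values were -0.006, 0.008 and 0.015. Differently numbered libraries correlated between -0.090 and 0.028. The main fit had no replicate block because no label says what a replicate number shares. A replicate block gave 4088 genes against nCas9, 707 against vehicle, 1085 against seBE with rapamycin, and a matched share of 56.9%. With trend removal and the replicate block, the counts were 1035 against vehicle and 1232 against seBE with rapamycin, and the share 62.4% (1287 of 2062). The 3 libraries a group limit every test, and counts of a few CPM, as in Nupr1 or Slc6a9, leave wide errors.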

Other observations

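Further gene lists gave mixed counts against nCas9, where 13.3% of all genes tested were higher and 11.6% lower, 24.9% in either direction. Called in either direction were 32.6% of lysosome and autophagy, 57.1% of mast cell and basophil, 24.3% of interferon-stimulated and 15.4% of histone genes tested. Of 46 lysosome and autophagy genes, 12 were higher and 3 lower, and 5 to 6 were higher without intact BE with rapamycin replicate 1 or 3 or nCas9 replicate 1. Of 7 tested mast cell and basophil genes, 3 were higher and 1 lower (median log2 fold change -0.03). The summed level of all 15 listed genes, Kit among them, ran from 663 to 682 CPM in intact BE with rapamycin and from 439 to 483 CPM in nCas9. Of 37 interferon-stimulated genes, 2 were higher and 7 lower (1 and 2 without intact BE with rapamycin replicate 3). Of 39 replication-dependent histone genes, whose transcripts mostly lack polyA tails and share sequence, 0 were higher and 6 lower, and 3 were lower without nCas9 replicate 1 or with the length and GC trend removed.

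Of 43 MYC and ribosome biogenesis genes, 9 were higher and 6 lower, 34.9% against 24.9% over all genes. The share called was 47.1% for glycolysis and hypoxia, 30.4% for NRF2 targets, 33.3% for the proteasome and 27.3% for NF-kB genes. Of 34 glycolysis and hypoxia genes, 9 were higher and 7 lower (5 and 4 without nCas9 replicate 2), and of 23 NRF2 targets 5 were higher and 2 lower. Of 33 proteasome genes, 4 were higher and 7 lower (2 and 5 without nCas9 replicate 1 or intact BE with rapamycin replicate 3, 1 and 5 without nCas9 replicate 2). Of 22 NF-kB genes 2 were higher and 4 lower, with 1 lower when any library but intact BE with rapamycin replicate 2 or nCas9 replicate 3 was left out, and the count became 5 higher and 1 lower with the trend removed. The nuclear RNA Neat1 was at 127 ± 23.4 CPM in intact BE with rapamycin and 259.6 ± 56.4 CPM in nCas9 (SD, n = 3 each; log2 fold change -1.03, SE 0.28, edgeR adjusted p = 0.017), a call lost without nCas9 replicate 1 or 2 or intact BE with rapamycin replicate 3 (adjusted p = 0.060, 0.064 and 0.077). Malat1 did not pass (log2 fold change 0.10, SE 0.40, edgeR adjusted p = 0.89).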
